A study of Homo sapiens with 6 samples.

Results

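Heme oxygenase and iron handling were examined as 10 genes chosen by name. HMOX1, BLVRA and BLVRB break heme down, and FTL and FTH1 store iron. TFRC, STEAP3 and SLC48A1 bring iron or heme into the cytosol, SLC40A1 exports iron, and IREB2 encodes a regulatory protein of iron handling. All 10 were found among the 25987 genes with a symbol in the deposited count table. Of these, 9 were among the 12944 genes that passed the filter on low counts. RNA had been sequenced from 786-O, a long-established line of human renal carcinoma of the clear cell type, which has no functional VHL and thus constantly active hypoxia-inducible factor 2. The genotype label was wild type in every sample. The copper group (n = 3) had been adapted to copper sulfate that was first bound to serum proteins overnight in the cold, and the control group (n = 3) had received serum handled alike without copper. The series text gives 30 uM copper, whereas the treatment label reads 30 uM for copper replicate 1, 31 uM for replicate 2 and 32 uM for replicate 3. The 3 were treated as 1 group. The length of the adaptation is not given in the sources used here, nor is it said whether the adapted cells were 1 clone or a pool. The labels do not say that libraries of a group came from separate cultures, so p-values measure the spread between these libraries, which may be technical.

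Heme is split by heme oxygenase into biliverdin, carbon monoxide and ferrous iron. Biliverdin is then reduced to bilirubin, and the iron is stored in ferritin shells of heavy and light chains or leaves the cell through ferroportin, the product of SLC40A1. HMOX1 is the inducible heme oxygenase, a classic target of the oxidative stress factor NRF2 and strongly responsive to heme, metals and oxidants. In the kidney it is known as a protective gene of the tubule. Transferrin-bound iron enters through the receptor encoded by TFRC, and STEAP3 reduces it in endosomes. STEAP proteins can also reduce copper. When iron is scarce, the regulatory proteins IRP1 (encoded by ACO1) and IRP2 (encoded by IREB2) bind stem-loops called iron-responsive elements. Binding blocks translation of ferritin mRNA and protects TFRC mRNA from decay, so that a change in iron shows in the RNA level of TFRC but mainly in the protein of ferritin.

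Those iron-responsive elements of these mRNAs that match a set pattern are shown because they are known sites through which iron acts on ferritin, ferroportin and TFRC. The principal GENCODE 29 transcripts (GRCh38) were searched for an unpaired C, 5 bases, the loop CAGTGN and 5 bases that pair with the first 5, with G-T pairs allowed. That element of 17 bases was found in a UTR of 123 of 19177 coding transcripts, or 0.641%. Among the members it was found in 4 transcripts. The lines below give each element in DNA letters with 5 bases on either side and the loop in capitals.
FTL, 5′ UTR, exon 1, chr19:48965336-48965362, plus strand: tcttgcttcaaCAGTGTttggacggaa
FTH1, 5′ UTR, exon 1, chr11:61967575-61967601, minus strand: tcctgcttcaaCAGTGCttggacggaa
SLC40A1, 5′ UTR, exon 1, chr2:189580662-189580688, minus strand: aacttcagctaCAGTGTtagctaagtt
TFRC, 3′ UTR, exon 19, chr3:196050980-196051006, minus strand: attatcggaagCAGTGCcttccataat
TFRC, 3′ UTR, exon 19, chr3:196050576-196050602, minus strand: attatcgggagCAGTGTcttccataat
TFRC, 3′ UTR, exon 19, chr3:196050511-196050537, minus strand: tgtatcggagaCAGTGAtctccatatg
TFRC, 3′ UTR, exon 19, chr3:196050464-196050490, minus strand: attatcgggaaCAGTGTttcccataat

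The light and heavy ferritin elements shared 25 of 27 bases, whereas the ferroportin element shared 13 with that of FTL and the TFRC elements 10 to 13. TFRC carried 4 matches to the pattern in its last exon, in the part of the mRNA where IRP binding is known to affect decay. Elements with another loop or an imperfect stem would be missed by this search. The 250 bases before the transcription start were also searched, on both strands, for cores bound by stress and metal factors (RefSeq promoters, GRCh38.p14). Promoters were matched for 8 members; HMOX1 and FTH1 had no entry. The antioxidant response element core TGACNNNGC was found in 0 of the 8, against 3013 of 27303 promoters. The metal response element core TGCACNC was found in 1, BLVRA (9.74% of all promoters), and its other form TGCGCNC in 4, BLVRB, TFRC, SLC40A1 and IREB2 (16.9%). In TFRC, 2 matches of the second form, on opposite strands, overlapped each other. The E-box CACGTG was found in 0 of the 8 (6.49%). Sites farther from the start were not searched, and 8 promoters are few beside these shares. A count of 0 therefore does not show that these genes lack such sites.

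Libraries held 16301772 to 25079913 counts. Replicate 3 of both groups stood apart from replicates 1 and 2. It lay at 41.2 in copper and 17.6 in control on the first principal component of log2 CPM (57.9% of the variance). Replicates 1 and 2 lay at -17.6 to -11.7. Of the renal and clear cell carcinoma markers, 10 of 11 passed the filter, with PAX8 at 133 and 139 CPM in copper and control and LRP2 at 0.226 and 0.173. Their summed level was 4772 to 5694 CPM in copper and 5171 to 5401 in control. Most of it came from VIM, with means of 3130 and 3121 CPM. Red cell markers, which would bring their own heme genes, summed to 0.112 to 0.488 CPM in copper and 0.161 to 0.786 in control, with HBB and HBA2 at 0 counts in every library. Leukocyte markers summed to 0.549 to 0.729 and 0.490 to 0.838 CPM, endothelial markers to 0.427 to 1.40 and 0.735 to 1.52, and fibroblast markers to 6.89 to 8.69 and 6.84 to 12.7. Fewer cells expressing a gene and less RNA per cell cannot be told apart in these bulk samples.

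Levels per kilobase of transcript, which allow genes to be compared, spanned the abundance range of the line. FTL stood highest, at 2431 ± 414 CPM (counts per 1000000) per kilobase in copper and 2023 ± 107 in control (SD, n = 3), and ranked 5 among 12846 tested genes with a known length. It took 0.166% to 0.254% of all counts of a library. FTH1 followed at 134 ± 13.4 and 108 ± 2.52. Ferritin genes have many processed copies in the genome, and how reads that match several places were counted is not given in the sources used here. The count table held 0 rows of FTH1 copies and 1 of an FTL copy, with 2 counts in all libraries together. The distance between the 2 chains is therefore uncertain.

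Below ferritin came BLVRB at 81.9 ± 20.8 CPM per kilobase in copper and 67.6 ± 6.55 in control, and TFRC at 69.0 ± 22.8 and 61.2 ± 8.23. These 2 neighbours overlapped in both groups. BLVRA stood at 56.7 ± 2.35 and 46.8 ± 1.12, overlapping TFRC in copper but not in control. HMOX1 ranked sixth of the 10 in copper, at 35.9 ± 5.58, where it overlapped STEAP3 (29.5 ± 3.47). In control it ranked seventh, at 16.8 ± 3.09, with all 3 libraries below those of STEAP3 (30.0 ± 1.61) and overlapping IREB2 (14.2 ± 0.291). SLC48A1, at 4.28 ± 0.785 and 2.75 ± 0.0811, was the lowest member that was tested, above 29.5% of tested genes.

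**Figure D1:**
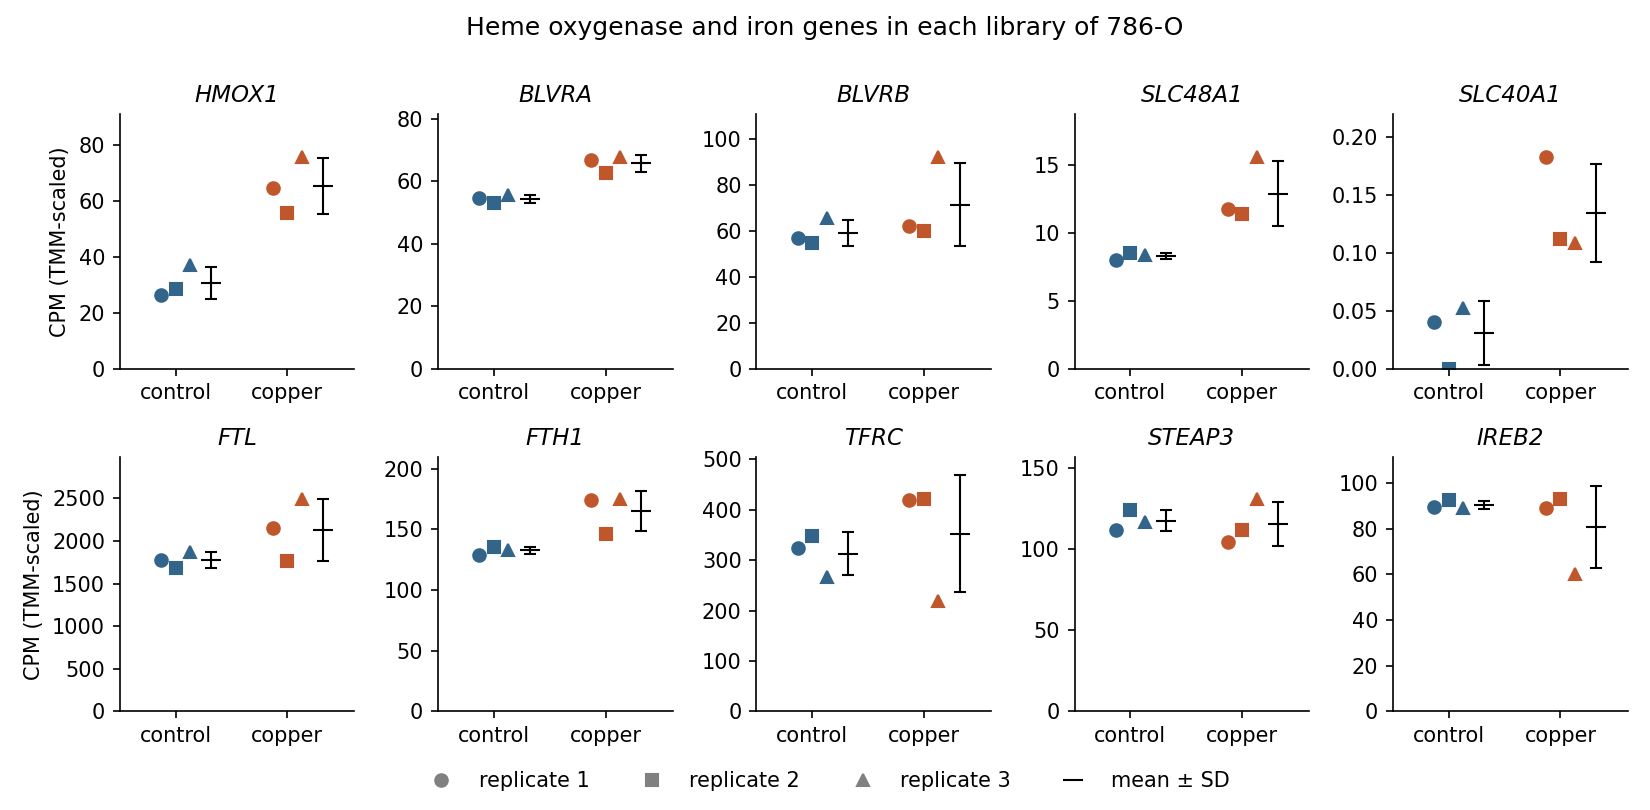
Level of each of the 10 genes in every library, as counts per 1000000 (CPM) after TMM scaling (linear axes from 0), with control in blue, copper in orange, a symbol for each replicate number and black bars for mean ± SD of 3 libraries. HMOX1, SLC48A1, BLVRA and FTH1 lie higher in all copper libraries than in any control library, and copper replicate 3 lies apart for TFRC and IREB2. SLC40A1, which was not tested, also lies higher in copper, but on 3 counts or fewer in each library.

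HMOX1, the inducible heme oxygenase (Entrez 3162; chromosome 22, 35381096 to 35394207), was measured at 64.6, 55.6 and 75.9 CPM (TMM-scaled) in copper replicates 1, 2 and 3, and at 26.3, 28.5 and 37.0 CPM in the controls. The lowest copper library was well above the highest control, and in both groups replicate 3 was the highest. The means were 65.3 ± 10.2 and 30.6 ± 5.63 CPM (SD, n = 3), a ratio of 2.14. The log2 fold change was 1.09 (SE 0.17, 95% interval 0.70 to 1.48), with an adjusted p of 0.241 by edgeR's quasi-likelihood test. With replicate number as a block it was 1.10 (SE 0.097), with an adjusted p of 0.00764. The differences in replicates 1, 2 and 3 were 1.29, 0.96 and 1.03 on the log2 scale. DESeq2 without the block gave an adjusted p of 9.71e-06. Without copper replicate 3 the fold change was 0.97 and edgeR's adjusted p 0.0559.

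HMOX2, the constitutive heme oxygenase on chromosome 16, had 73.6, 75.7 and 84.2 CPM in copper and 72.7, 68.5 and 69.4 in control. All copper libraries were higher, but copper replicate 1 lay close to control replicate 1. On the log2 scale copper minus control was 0.15 (SE 0.094), and edgeR's adjusted p was 1.00 without and 0.652 with the block. The ratio of HMOX1 to HMOX2 counts, which needs no library scaling, was 0.877, 0.735 and 0.901 in copper and 0.362, 0.416 and 0.533 in control. The ratio was higher in every copper library than in any control, by 0.95 on the log2 scale. The exact two-sided permutation p was 0.10, the smallest that 3 libraries against 3 can give. POR, the reductase that hands electrons to heme oxygenase, had 184 ± 15.2 and 184 ± 14.7 CPM.

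Of the 9 tested members, edgeR called 0 at an adjusted p under 0.05 without the block, as it called 0 of all genes (0%). At an unadjusted p under 0.05 there were 4 members, HMOX1, SLC48A1, BLVRA and FTH1, against 3.52% of all tested genes. DESeq2 called 1, HMOX1, against 0.209% of all genes, and limma-voom called 0, also of all genes (0%). With the block edgeR called 1, again HMOX1, against 0.170% of all tested genes, and 6 had an unadjusted p under 0.05 against 8.41%. The groups did not overlap, with copper higher, for 4 of the 9 (5.45% of all tested genes) and, with copper lower, for 0 of the 9 (5.35%). The median log2 fold change was 0.28 over the 9 members and 0.0052 over all tested genes. The members had been chosen with the HMOX1 result known, so these counts are a description.

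**Figure D2:**
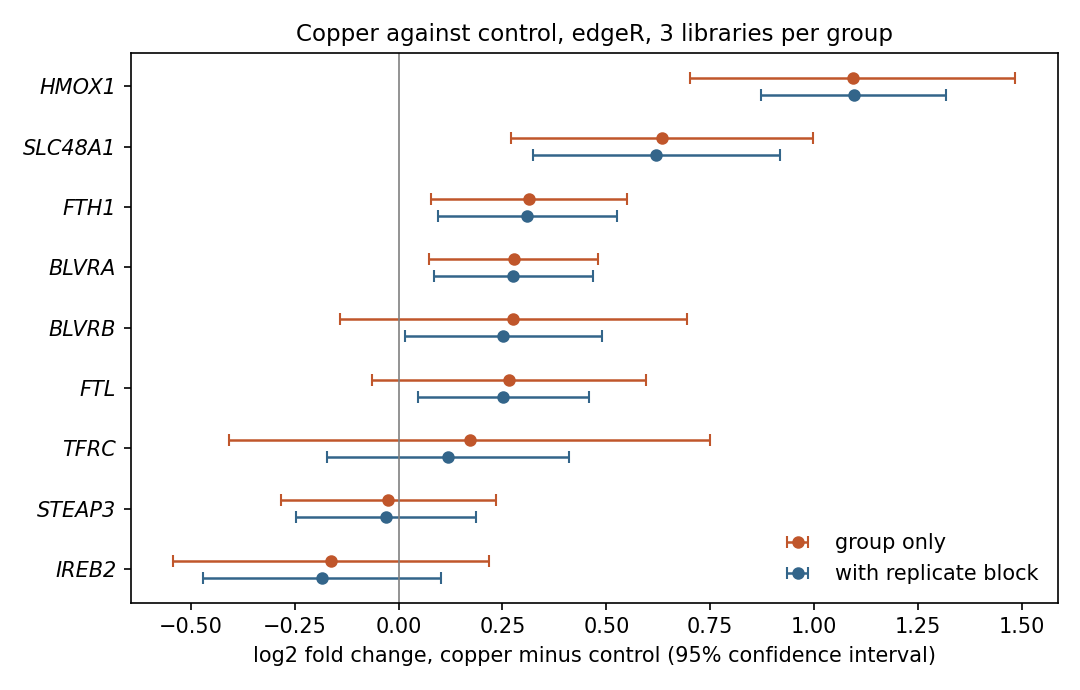
Log2 fold change of copper against control for the 9 tested genes, with 95% confidence intervals from edgeR, without the replicate block in orange and with it in blue. HMOX1 stands at 1.09 and 1.10, and the intervals of TFRC, STEAP3 and IREB2 include 0 in both fits.

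Biliverdin reductases act on the product of heme oxygenase. BLVRA (Entrez 644; chromosome 7, 43758673 to 43807342), the main adult biliverdin reductase, had 66.8, 62.8 and 67.9 CPM in copper and 54.5, 52.9 and 55.5 in control. The libraries of each group lay close together and the groups did not overlap. The log2 fold change was 0.28 (SE 0.088, 95% interval 0.073 to 0.48), with unadjusted p-values of 0.0142 without and 0.0101 with the block and edgeR adjusted p-values of 1.00 and 0.438. The differences in replicates 1, 2 and 3 were 0.29, 0.24 and 0.29.

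BLVRB (Entrez 645; chromosome 19, 40447768 to 40465745) encodes a second reductase that also reduces flavins. It had 62.2, 59.8 and 92.4 CPM in copper and 57.0, 54.6 and 65.5 in control. Copper replicate 3 was far above the rest, while copper replicates 1 and 2 were below control replicate 3. The log2 fold change was 0.28 (SE 0.18, 95% interval -0.14 to 0.69), and 0.048 without copper replicate 3. The differences in replicates 1, 2 and 3 were 0.13, 0.13 and 0.50, and with the block the interval was 0.016 to 0.49 (unadjusted p 0.0391, edgeR adjusted p 0.574). The ratio of BLVRB to BLVRA counts was 1.08 ± 0.241 in copper and 1.08 ± 0.0815 in control, a log2 difference of -0.025 with an exact two-sided permutation p of 1.00.

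SLC48A1 (Entrez 55652; chromosome 12, 47773238 to 47782751) encodes HRG1, which carries heme out of endosomes and lysosomes into the cytosol. It was scarce, with 192, 202 and 289 counts in copper and 199, 173 and 159 in the deeper control libraries. After scaling this gave 11.7, 11.3 and 15.6 CPM in copper and 8.0, 8.48 and 8.33 in control. The control libraries were nearly equal and all copper libraries were above them. The log2 fold change was 0.63 (SE 0.16, 95% interval 0.27 to 1.00), with unadjusted p-values of 0.00411 without and 0.00131 with the block and edgeR adjusted p-values of 0.984 and 0.188. The differences in replicates 1, 2 and 3 were 0.54, 0.41 and 0.90. The last 28 bases of the gene overlap HDAC7 on the other strand, which had 1071 to 1748 counts and a log2 fold change of -0.058, and the use of strand in counting is not given in the sources used here.

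The ferritin genes had smaller differences than HMOX1. FTH1 (Entrez 2495; chromosome 11, 61964285 to 61967634) encodes the heavy chain, which oxidizes ferrous iron as it enters the shell. It had 174, 146 and 175 CPM in copper and 129, 135 and 133 in control, with no overlap. On the log2 scale the fold change was 0.31 (SE 0.10, 95% interval 0.078 to 0.55), with unadjusted p-values of 0.0156 without and 0.0104 with the block and edgeR adjusted p-values of 1.00 and 0.439. The differences in replicates 1, 2 and 3 were 0.43, 0.11 and 0.39.

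FTL (Entrez 2512; chromosome 19, 48965309 to 48966879) encodes the light chain, which lacks that oxidase site and helps to form the iron core. It had 2153, 1762 and 2488 CPM in copper and 1772, 1684 and 1872 in control. Copper replicates 1 and 3 were above all controls, but copper replicate 2 was below 2 of them. Copper minus control was, in log2 units, 0.27 (SE 0.14, 95% interval -0.064 to 0.59), and 0.14 without copper replicate 3. The differences in replicates 1, 2 and 3 were 0.28, 0.066 and 0.41, and with the block the interval was 0.046 to 0.46 (unadjusted p 0.0223, edgeR adjusted p 0.522). The ratio of FTL to FTH1 counts was 12.4, 12.1 and 14.2 in copper and 13.7, 12.4 and 14.1 in control. The groups overlapped, with a log2 difference of -0.058 and an exact two-sided permutation p of 0.70. FTL and FTH1 together made 1908 to 2663 CPM in copper and 1819 to 2006 in control. NCOA4, the receptor that takes ferritin to lysosomes, had 359 ± 82.3 and 397 ± 39.6 CPM (log2 fold change -0.15, SE 0.17). Its value was -0.34 without copper replicate 1, -0.069 without control replicate 1 and -0.0073 without copper replicate 3.

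**Figure D3:**
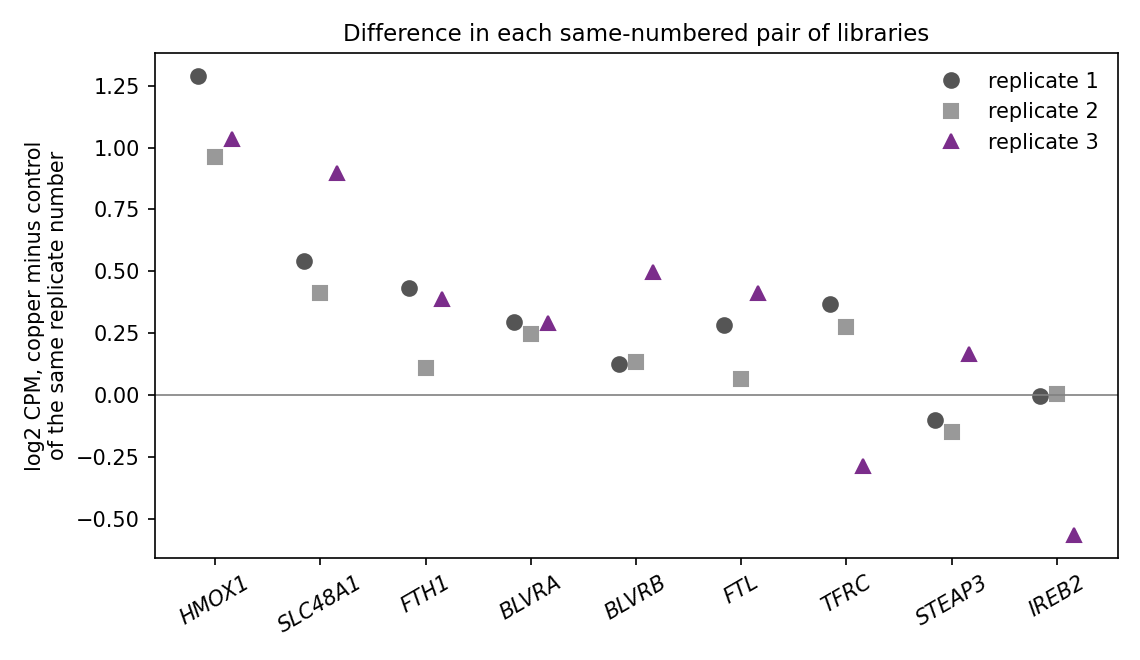
Difference in log2 CPM between the copper and control library of the same replicate number for the 9 tested genes (circles, replicate 1; squares, replicate 2; triangles, replicate 3). The 3 values are above 0 for 6 genes, while TFRC and IREB2 in replicate 3 stand at -0.29 and -0.57.

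TFRC (Entrez 7037; chromosome 3, 196049284 to 196082090), the transferrin receptor, differed between replicate numbers in direction. It had 419, 420 and 218 CPM in copper and 325, 348 and 266 in control. Copper replicates 1 and 2 were above all controls and copper replicate 3 was below all of them. The fitted log2 fold change was 0.17 (SE 0.25, 95% interval -0.41 to 0.75), with an edgeR adjusted p of 1.00. In replicates 1, 2 and 3 the differences were 0.37, 0.27 and -0.29. In replicates 1 and 2 alone the fold change was 0.32 (edgeR adjusted p 0.0321, with 0.856% of all genes called), and without copper replicate 3 it was 0.42 (adjusted p 0.301).

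IREB2 (Entrez 3658; chromosome 15, 78438216 to 78501453), which encodes the regulatory protein IRP2, showed the same library apart. It had 89.3, 92.9 and 60.2 CPM in copper and 89.5, 92.5 and 89.1 in control. Only copper replicate 3 left the narrow range of the others. On the log2 scale the fold change was -0.16 (SE 0.16, 95% interval -0.54 to 0.22), and 0.011 without copper replicate 3. TFRC and IREB2 had the longest transcripts of the members (5111 and 6354 bases) and the lowest GC content (41.5% and 38.3%), against 50.1% to 62.2% in the other tested members. With the block alone the fold changes were 0.12 for TFRC and -0.19 for IREB2. They were 0.25 for FTL and BLVRB, 0.28 for BLVRA, 0.31 for FTH1 and 0.62 for SLC48A1. A further fit with the block also removed from each library its trend over GC content and length of the transcripts. It gave 0.18 for TFRC and -0.099 for IREB2, 0.15 for FTL and BLVRB, 0.18 for BLVRA, 0.22 for FTH1 and 0.61 for SLC48A1. In that fit 2 members were called by edgeR, HMOX1 (1.03, adjusted p 0.00126) and SLC48A1 (adjusted p 0.0238), against 1.55% of all genes.

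STEAP3 (Entrez 55240; chromosome 2, 119223834 to 119265651), the endosomal metalloreductase, had 104, 112 and 131 CPM in copper and 112, 124 and 117 in control. The groups overlapped, with replicate 3 the highest in copper. Copper minus control was, in log2 units, -0.025 (SE 0.11, 95% interval -0.28 to 0.23); it was 0.0015 with upper-quartile and 0.0040 with total-count scaling. Its relatives were scarce: STEAP1 had 1.63 ± 0.700 and 1.39 ± 0.259 CPM, and STEAP2 had 0.402 ± 0.136 and 0.433 ± 0.0622 and was not tested.

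SLC40A1 (Entrez 30061; chromosome 2, 189560590 to 189580786), the only known cellular iron exporter, was at the limit of detection. It had 3, 2 and 2 counts in copper and 1, 0 and 1 in control. No library exceeded 3 counts, the number that a count of 0 allows (0.147 CPM in control replicate 2, counting error only), so no fold change is given and it was not tested.

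The wider pathway was described with lists of 78 genes, of which 63 were tested, 54 of them outside the 10 members. EdgeR called 0 of these 54 in either direction, with or without the block. At an unadjusted p under 0.05 there were 2 without and 4 with the block, against 3.52% and 8.41% of all tested genes, a share near that background. DESeq2 called 1 of the 63, HMOX1, without the block. The median log2 fold change of the 54 was 0.019, with 31 positive (57.4%), against 0.0052 and 51.4% over all tested genes.

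In the list of heme breakdown and transport, 0 of 11 tested genes were called without the block and 1, HMOX1, was called higher with it. Its median log2 fold change was 0.15, with 8 positive. Outside the members, ABCG2, a pump for porphyrins and many drugs, had 4.82, 4.32 and 2.32 CPM in copper and 2.21, 2.21 and 1.47 in control. The groups just failed to overlap, since copper replicate 3 was close to 2 controls. The fitted log2 fold change was 0.92 (SE 0.31), with edgeR adjusted p-values of 1.00 without and 0.147 with the block. EdgeR called ABCG2 with the block after the correction for GC content and length (0.95, adjusted p 0.0272) and in replicates 1 and 2 alone (1.01, adjusted p 0.0367). In heme synthesis all 8 tested genes had a positive value, with a median of 0.072 and 0 called in either fit. UROD had a log2 fold change of 0.10 (SE 0.13), but -0.044 without copper replicate 3. ALAS1, which starts heme synthesis outside red cells, had 46.9 and 46.2 CPM.

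Among iron exporters and ferroxidases 1 of 5 genes was tested. It was CP, ceruloplasmin, the copper-carrying ferroxidase that loads iron onto transferrin. CP (Entrez 1356; chromosome 3, 149172497 to 149221829) had 50.6, 76.6 and 42.8 CPM in copper and 32.8, 39.7 and 34.6 in control. All copper libraries were above all controls, with copper replicate 2 the highest. On the log2 scale the fold change was 0.67 (SE 0.21), with edgeR adjusted p-values of 1.00 without and 0.154 with the block. DESeq2 with the block, chosen after seeing the data, called it (0.63, adjusted p 0.00586, with 0.448% of all genes called), as did edgeR with the block after the correction for GC content and length (0.69, adjusted p 0.00375). Without copper replicate 2 the fold change was 0.38. HEPH and HEPHL1, its membrane-bound relatives, were under 0.1 CPM in both groups.

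Iron uptake and metal reduction had a median of -0.025 over 7 tested genes, with 3 positive and 0 called in either fit. SLC39A14, a carrier of zinc, manganese and unbound iron, had 117 ± 19.5 and 141 ± 16.8 CPM, a log2 fold change of -0.27 (SE 0.15), and -0.13 without copper replicate 3. Its differences in replicates 1, 2 and 3 were -0.20, -0.26 and -0.36. With the block the interval was -0.46 to -0.080 (edgeR adjusted p 0.451). Iron storage and its chaperones had a median of -0.015 over 5 genes, with 0 called in either fit. PCBP1, which delivers iron to ferritin, had a log2 fold change of -0.016; it was 0.0062 with upper-quartile and 0.011 with total-count scaling.

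Iron sensing and heme-responsive transcription had a median of -0.019 over 9 tested genes, with 3 positive and 0 called in either fit. ACO1, which encodes IRP1, had 109 ± 9.62 and 109 ± 12.3 CPM. FBXL5, the iron-sensing subunit that marks IRP2 for degradation, had 69.7 ± 5.33 and 72.1 ± 1.45. NFE2L2, which encodes NRF2 and is controlled mainly through its protein, had 196 ± 20.0 and 198 ± 14.2. HFE, a partner of the transferrin receptor, had 16.7 ± 1.48 and 17.6 ± 1.46. MAFG, a small MAF partner of NRF2, had 109 ± 1.89 and 98.2 ± 2.65 CPM and did not overlap between groups (log2 fold change 0.14, SE 0.083, edgeR adjusted p 1.00). TMPRSS6, a protease that restrains hepcidin, was at 0.417 and 0.633 CPM with a log2 fold change of -0.46 (SE 0.57).

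Mitochondrial iron and iron-sulfur cluster genes had a median of 0.079 over 19 tested genes, with 13 positive and 0 called in either fit. LYRM4 and ISCA1, which serve early and late steps of cluster assembly, had log2 fold changes of 0.15 (SE 0.093) and 0.19 (SE 0.11). The mRNAs with textbook iron-responsive elements had a median of -0.061 over 7 tested genes, with 3 positive, FTL, FTH1 and TFRC. EPAS1, which encodes hypoxia-inducible factor 2 alpha and has an element in its 5′ UTR, had 308, 334 and 406 CPM in copper and 374, 381 and 441 in control. The groups overlapped, and the log2 fold change was -0.19 (SE 0.13, edgeR adjusted p 1.00). Copper was lower in all 3 same-numbered pairs, with differences of -0.28, -0.19 and -0.12, and the blocked interval was -0.38 to -0.016 (edgeR adjusted p 0.573). The value was -0.11 without either copper replicate 1 or control replicate 3 and -0.31 without copper replicate 3. CDC42BPA, a kinase with such an element in its 3′ UTR, had a log2 fold change of -0.17 (SE 0.18), but 0.020 without copper replicate 3.

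**Figure D4:**
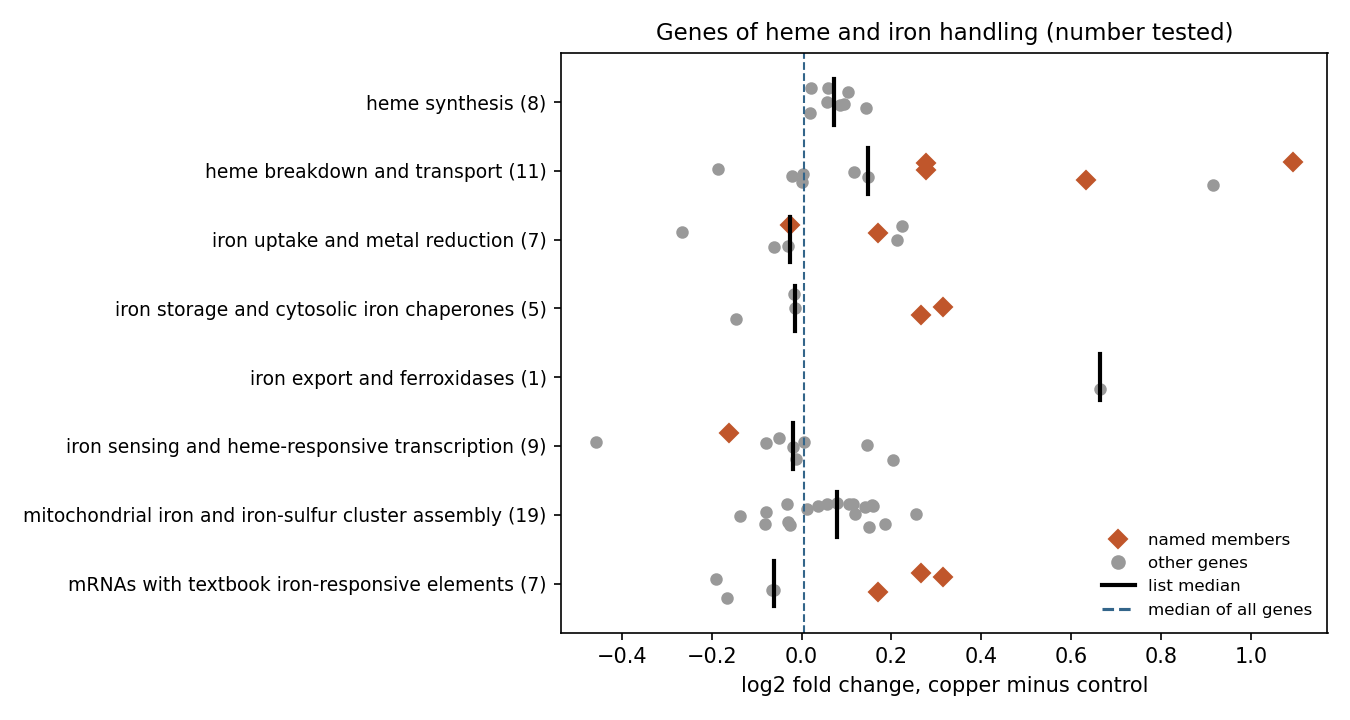
Log2 fold change of copper against control for the tested genes of 8 lists of heme and iron handling, with the 9 tested members as orange diamonds, other genes as grey circles, list medians as black bars and the median of all 12944 tested genes (0.0052) as a dashed line. HMOX1 at 1.09 and ABCG2 at 0.92 lie farthest to the right, and most other genes lie within 0.3 of 0; some genes stand in 2 lists.

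The 5 genes outside the members whose pattern over the 6 libraries was nearest to that of HMOX1 were MT2A, BHMT2, C15orf48, OSGIN1 and MGST1. Likeness was measured as the root mean square difference of log2 CPM after each gene was centred on its mean, among 10282 genes with at least 5 CPM. It was 0.177 for MT2A, 0.232 for BHMT2, 0.264 for C15orf48, 0.288 for OSGIN1 and 0.297 for MGST1, whereas HMOX1 itself varied by 0.582 around its mean. All 5 were higher in every copper library than in any control, which the choice by likeness fixes, so no test is given. MT2A, a metallothionein, had 631, 724 and 803 CPM in copper and 328, 349 and 351 in control. BHMT2, which makes methionine from homocysteine, had 33.5, 33.9 and 33.7 CPM in copper and 19.1, 17.3 and 18.4 in control. OSGIN1, an oxidative stress response gene, had 20.1, 19.1 and 26.0 CPM and 13.3, 13.8 and 18.0. HMOX1, MT2A, OSGIN1 and C15orf48 were each highest in replicate 3 of both groups. MGST1, a membrane-bound glutathione transferase, had 231 ± 25.4 and 148 ± 5.99 CPM, and C15orf48 had 8.29 ± 2.14 and 5.23 ± 0.783.

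**Figure D5:**
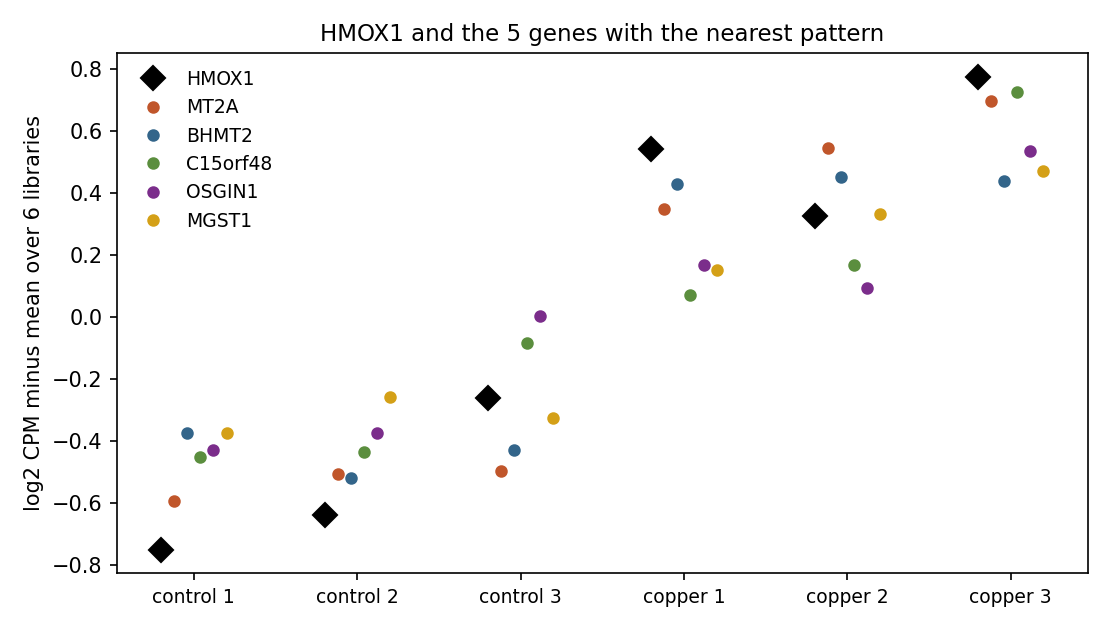
Log2 CPM of HMOX1 (black diamonds) and the 5 genes nearest to it, each minus its own mean over the 6 libraries, which are named on the horizontal axis. Every gene lies higher in the 3 copper libraries than in the 3 controls, a pattern that the choice by likeness to HMOX1 fixes.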

How the data were processed

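The authors deposited raw counts per gene for 6 libraries, with Entrez numbers, symbols and coordinates. STAR, FastQC, edgeR and GRCh38 are named in the submitters' processing notes, with no roles. The counting program, strand use and treatment of reads matching several genes are not given in the sources used here. Libraries were directional (NEBNext Ultra II), from total RNA, per the labels' protocols. Table starts count from 0 and 1 was added. Rows without a symbol (5 of 25992, 0.000814% of counts) were left out.

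The tests used edgeR 4.0.16 under R 4.3.3: filterByExpr (minimum count 10, minimum total 15), TMM factors, a robust quasi-likelihood F test of group, Benjamini-Hochberg adjustment over all tested genes, threshold 0.05, prior count 2. The SE is the log2 fold change divided by the root of F. CPM are counts per 1000000 of TMM-scaled library size, and CPM per kilobase used the principal GENCODE 29 transcript (the longest where none is tagged; 99.2% of tested genes). Intervals for fold changes are at 95%.

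Both groups carry replicate numbers 1 to 3. Deviations from the group mean correlated across 12944 genes, which are not independent replicates, at 0.462, 0.396 and 0.652 between same-numbered libraries. Each value lay above the preset limit of 0.1, and the blocked value is given where it changes a call. Correlations between libraries with unlike numbers were not computed. Replicate 3 stood apart in both groups on the first principal component, which could by itself raise these correlations. They therefore cannot show that libraries pair by number, and the blocked values depend on a pairing that was not tested. The labels state no shared batch.

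The rule for named genes took the 10 members, 10 partners or regulators, the 2 other genes with the smallest p of each list, list genes called in either fit, and the 5 genes most like HMOX1. A gene that the rule names is not reported here. Members and lists were chosen with earlier results of these data known. A planned list gene was not analysed here. Alternatives included DESeq2 1.42.0 and limma-voom (limma 3.58.1), other scalings and filters, left-out replicates, the replicate block, and the block after a spline (4 degrees of freedom) over length and GC. Scripts were tested on simulated data.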

Additional observations from a re-analysis of the deposited data

How the results depend on the processing

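EdgeR called 0 genes with the settings given above. It also called 0 genes with RLE, upper-quartile or total-count scaling, with the mean filter and with a smaller prior count, as did limma-voom, and there HMOX1 was at 1.09 to 1.12 with adjusted p from 0.205 to 0.316. The count was 12 with no filter, 27 with DESeq2, 111 in replicates 1 and 2 alone, 35 with a batch term for replicate 3, 22 with the replicate block, 200 when that block was joined by the correction for GC and length, 912 with the block leaving out pair 3, and 58 with the block in DESeq2 (the last chosen after seeing the data). In the same order the shares of all tested genes were 0.0526%, 0.209%, 0.856%, 0.27%, 0.17%, 1.55%, 7.03% and 0.448%. With the main filter, 9 members and 63 list genes were tested. The members called were, again in that order, 1, 1, 2, 1, 1, 2, 5 and 1. The list genes called were 1, 1, 3, 1, 1, 4, 10 and 2. HMOX1 was among the called members in each, with log2 fold changes of 1.07, 1.09, 1.13, 1.10, 1.10, 1.03, 1.13 and 1.10 and adjusted p-values from 7.96e-14 to 0.0137. Leaving out one replicate gave 0 to 15 genes, 0 members and 0 list genes, and HMOX1 from 0.973 to 1.25 with adjusted p from 0.0559 to 1.00. The 15 genes came without copper replicate 3. The block leaving out pair 3 also called BLVRA (0.269), FTL (0.173), TFRC (0.319), SLC48A1 (0.479), CP (0.793), ABCG2 (1.02), EPAS1 (-0.235) and SLC39A14 (-0.228). That fit called ISCA1 (0.227) as well.

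Over the other named genes and alternatives, 570 results kept direction and call, 46 became called and 40 changed sign, all of genes that no setting called. Most of the 46 were of genes chosen for likeness to HMOX1: MT2A (9), BHMT2 (9), MGST1 (8), OSGIN1 (4) and C15orf48 (1). Changes of sign were as follows. With upper-quartile and total-count scaling, STEAP3 was at 0.00150 and 0.00395, POR at 0.0252 and 0.0284, NFE2L2 at 0.00756 and 0.0139, and PCBP1 at 0.00623 and 0.0113. Under them the median over all genes was 0.0281 and 0.0325. In replicates 1 and 2, without and with the block, IREB2 was at 0.00124 and 0.000496, NFE2L2 at 0.00983 and 0.00987, ACO1 at -0.00539 and -0.00533, FBXL5 at 0.0152 and 0.0131, STEAP1 at -0.245 and -0.226, and UROD at -0.0349 and -0.0370. POR was at 0.0000930 with the mean filter and 0.000188 with the batch term, and ACO1 at -0.0148 with no filter.

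Leaving out one replicate gave ranges of -0.122 to 0.0424 for STEAP3, -0.278 to 0.0109 for IREB2, -0.0558 to 0.0594 for POR, -0.0718 to 0.0679 for NFE2L2, -0.0763 to 0.0859 for ACO1, -0.113 to 0.000199 for FBXL5, -0.177 to 0.408 for STEAP1, -0.0441 to 0.198 for UROD, -0.0594 to 0.0410 for PCBP1 and -0.305 to 0.0202 for CDC42BPA. TFRC ranged from 0.0214 to 0.422, BLVRB from 0.0476 to 0.384 and FTL from 0.140 to 0.382. The ratio of FTL to FTH1 ranged from -0.132 to -0.0120 and that of HMOX1 to HMOX2 from 0.826 to 1.10. For none of these changes of call or sign was the cause tested. Adding ferritin pseudogene rows was not run, since the table held 0 such rows for FTH1 and 2 counts for FTL. SLC40A1, STEAP2 and the other genes under the filter had too few counts at this depth to be tested.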
